A study of Mus musculus with 11 samples.

Results

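Collagen chains, the polypeptides that wind into triple helices and build fibrils, basement membranes and other matrix assemblies, were examined in C2C12 cells, a mouse myoblast line that can fuse into myotubes. Members were the genes whose mouse symbol has the form Col, a number, a and a number: 31 of the 15113 genes in the count table, of 44 such symbols in the GENCODE M21 annotation. The other 13 are not analysed here. After the low-count filter, 24 of the 31 were tested and 7 were too low to test. The control group, shRandom (n = 6), carried a random short hairpin RNA. The other group, shDRP1 (n = 5), carried a hairpin against Drp1, the GTPase that divides mitochondria. The labels give both groups as early stage myotubes, with passages 2 to 5. RNA was counted by QuantSeq, which reads a tag near the 3′ end of each polyadenylated transcript. The labels do not say that libraries of a group came from separate cultures or clones, so each p-value rests on variation among libraries that could be technical.

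Each collagen molecule is a trimer of chains whose helix needs glycine at regular steps. Fibrillar chains (types I, II, III, V, XI, XXIV and XXVII) form the cable-like fibrils of connective tissue, and type IV chains form the sheet of the basement membrane that surrounds each muscle fibre. Fibril-associated chains decorate fibrils, type VI chains form beaded filaments beside the basement membrane, and loss of type VI collagen causes muscular dystrophy in people. Chains are hydroxylated, folded and exported before their ends are cut and the fibrils cross-linked outside the cell.

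Sequences are shown for the tested fibrillar chain that rose most and the one that fell, Col11a1 and Col5a3, and for the start shared by Col4a1 and Col4a2, a pair that moved little. They were taken from RefSeq on GRCm38.p6, where 25 of the 31 chains had a promoter entry. For Col11a1 and Col5a3 the 250 bases before the annotated start are printed on the gene's strand, with the CCAAT motif and the GC box (GGGCGG) in capitals on either strand.
Col11a1, chr3:114030290-114030539, plus strand: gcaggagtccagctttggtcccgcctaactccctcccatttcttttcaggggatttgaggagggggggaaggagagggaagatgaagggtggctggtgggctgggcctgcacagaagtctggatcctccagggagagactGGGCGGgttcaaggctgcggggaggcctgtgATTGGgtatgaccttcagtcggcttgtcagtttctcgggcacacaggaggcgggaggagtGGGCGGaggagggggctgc
Col5a3, chr9:20815068-20815317, minus strand: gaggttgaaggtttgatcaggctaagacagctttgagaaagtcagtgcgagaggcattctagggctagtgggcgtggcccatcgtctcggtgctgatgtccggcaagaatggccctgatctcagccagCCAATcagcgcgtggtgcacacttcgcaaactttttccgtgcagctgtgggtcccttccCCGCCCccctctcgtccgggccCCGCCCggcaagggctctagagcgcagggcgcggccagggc
Col4a1/Col4a2, chr8:11312805-11312826, plus strand: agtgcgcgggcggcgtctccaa

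Both promoter windows held 1 CCAAT and 2 GGGCGG motifs. These motifs occurred on either strand in 33.8% and 32.7% of 32851 promoter windows of the same length. A TATAAA motif, present in 12.4% of windows, was in neither. The E-box form CANNTG, present in 66.2% of windows, occurred once before Col5a3 and not before Col11a1. The capitals are matches of letters and do not show that a factor bound there. The last sequence is the 22 bases over which the annotated first exons of Col4a1, on the minus strand, and Col4a2, on the plus strand, overlap head to head.

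Total counts ranged from 12277622 to 23082617 per library, the lowest in shDRP1 replicate 2. Dnm1l, which encodes Drp1, was at 78.6 ± 8.63 CPM (SD, n = 6; counts per TMM-scaled library total, as CPM throughout) in shRandom and 18.7 ± 2.58 CPM (SD, n = 5) in shDRP1 libraries. Its fitted log2 change was -2.07 (SE 0.11, adjusted p = 2.7e-10, edgeR). The shDRP1 libraries went against their label as myotubes. Of 12 myotube markers, which include myogenin, the fusion protein Mymk and skeletal actin, 12 fell, and their summed level was 13002 to 14445 CPM in shRandom and 165.1 to 227.6 CPM in shDRP1 libraries. None of the 12 was at 0 in all shDRP1 libraries. Of 5 measured smooth muscle and myofibroblast markers 4 rose and none fell, with a sum of 2687 to 3226 CPM in shRandom and 8369 to 10126 CPM in shDRP1. Of 7 measured fibroblast markers 3 rose (Postn, Dcn and Lum) and 3 fell (Fap, Dpt and Pi16), and their sum went from 200.1 to 219.1 CPM up to 1116 to 1339 CPM. Of 5 measured myoblast markers 1 rose and 4 fell, and their sum went from 1085 to 1404 CPM down to 109.8 to 152.2 CPM. Measured markers summed to at most 44.5 CPM for osteoblasts, 19.0 CPM for adipocytes and 2.75 CPM for macrophages, each highest in shRandom. Of all tested genes 33.9% rose and 33.3% fell by the same test. Some markers, such as Fap and Pi16, passed the low-count filter only through the shRandom libraries and had to differ. Lum was near the floor, at 0.352 ± 0.150 CPM in shRandom and 0.901 ± 0.319 CPM in shDRP1, and passed the filter mainly through the shDRP1 libraries. Single genes made most of some sums: Acta2 had 7343 to 9297 CPM and Postn 745.4 to 929.5 CPM in shDRP1, and Des had 635.3 to 984.3 CPM in shRandom. The part of these marker shifts in the collagen results was not tested, and fewer cells of a type cannot be told apart from less RNA per cell in such bulk libraries.

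Collagen took a larger share of the transcript counts in shDRP1 libraries, and its make-up shifted towards type I. The 31 chains together held 0.957% ± 0.0450 (SD, n = 6) of counts in shRandom and 1.99% ± 0.336 (SD, n = 5) in shDRP1 libraries. In shRandom the share ran from 0.904% to 1.04%. In shDRP1 replicates 1 to 5 it was 2.03%, 2.54%, 1.89%, 1.70% and 1.77%, so the groups did not overlap and replicate 2 was the highest. Within the collagen counts, type I chains held 33.1% ± 1.16 (SD, n = 6) in shRandom and 56.0% ± 3.397 (SD, n = 5) in shDRP1. Type III fell from 36.3% ± 1.46 to 26.5% ± 1.87 of collagen counts, type V from 15.02% ± 0.442 to 9.68% ± 0.829, type VI from 6.27% ± 0.331 to 2.22% ± 0.314, and type VIII from 4.85% ± 0.239 to 1.57% ± 0.258, with SD and n as before. These shares are descriptions of the counts, in which each chain is weighted by how well its 3′ end was captured. They are parts of a whole, so a larger type I part lowers the others. In level, given below, Col3a1, Col5a1, Col5a2 and Col6a3 rose, Col5a3, Col6a1, Col6a2 and Col8a1 fell, and Col8a2 missed the threshold.

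**Figure D1:**
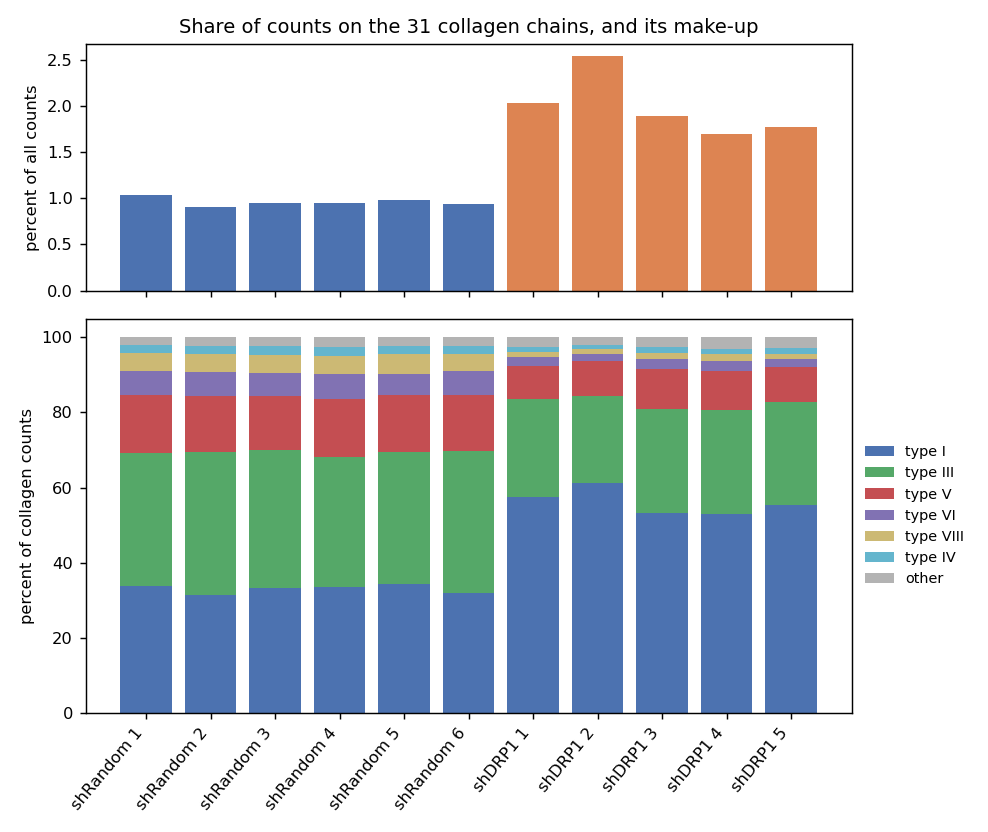
The upper bars give the percent of all counts that fell on the 31 collagen chains in each library (blue shRandom, orange shDRP1), and the lower bars divide those counts by collagen type. The 5 shDRP1 libraries lie between 1.70% and 2.54%, above the 6 shRandom libraries at 0.904% to 1.04%, and the type I part of the collagen counts is larger in them (mean 56.0% against 33.1%).

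Of the 24 tested chains, 14 rose, 8 fell and 2 missed the threshold, an adjusted p of 0.05 (edgeR quasi-likelihood test, Benjamini-Hochberg adjustment over 13025 genes). The 14 make 58.3% of tested chains, where 33.9% of all tested genes rose. The 8 make 33.3%, where 33.3% of all genes fell, and in either direction 91.7% of chains and 67.1% of all genes passed. At least 2-fold changes were seen in 7 chains upward and 5 downward, where 11.2% and 13.7% of all genes passed that rule. No overlap between groups was seen for 9 higher and 7 lower tested chains, where 23.5% and 25.4% of all genes did not overlap in those directions. The median log2 fold change (shDRP1 over shRandom) of the tested chains was 0.29, and that of all tested genes was 0.03. A chain that entered the test only through the group where it is high, such as Col11a2, Col13a1 and Col17a1, had to differ, so these counts do not describe all 31 members. Among the 17 chains of at least 10 CPM in a group, shDRP1 replicate 2 was the highest of its group in 8 and shRandom replicate 4 was the highest of its group in 8.

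**Figure D2:**
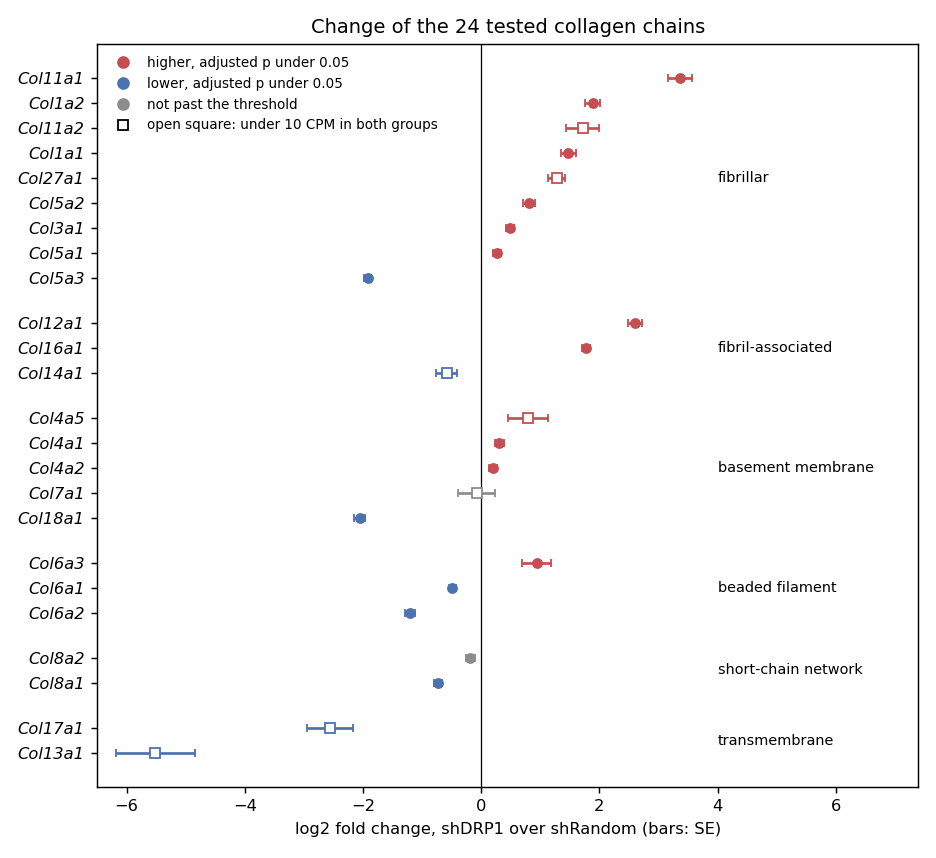
Points give the log2 fold change of shDRP1 over shRandom for the 24 tested collagen chains, grouped by class, and bars give its SE. Fibrillar chains lie to the right of 0 except Col5a3, and the values run from -5.52 for Col13a1 to 3.36 for Col11a1. Col13a1 had 1 count in all shDRP1 libraries together, so the size of its fall is uncertain.

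Fibrillar chains rose, with a single exception. Of 9 tested, 8 rose and 1, Col5a3, fell, with a median log2 fold change of 1.28. Of all tested genes 33.9% rose and 33.3% fell. Among the 8, Col11a2 entered the test only through the shDRP1 libraries. Col1a1 and Col1a2 encode the α1 and α2 chains of type I collagen, the main fibril of bone, tendon and scar. The Col1a1 level (ENSMUSG00000001506, chromosome 11 from 94936224 to 94953042, plus strand of GRCm38) ran from 1250 to 1678 CPM with a median of 1403 CPM in shRandom, and was 4201, 5404, 3165, 3115 and 3956 CPM in shDRP1 replicates 1 to 5. Every shDRP1 library lay above every shRandom library, replicate 2 furthest. Its fitted log2 change was 1.47 (SE 0.13, adjusted p = 1.9e-07, edgeR), and 1.33 without shDRP1 replicate 2. Col1a2 (ENSMUSG00000029661, chromosome 6 from 4504814 to 4541544) ran from 1647 to 2037 CPM with a median of 1821 CPM in shRandom, and was 7038, 9348, 6303, 5647 and 5712 CPM in shDRP1. Its groups stood apart as well, and the fitted log2 change was 1.88 (SE 0.12, adjusted p = 4.4e-09, edgeR). An unclassified gene model, Gm43921, lies within Col1a2 on the same strand, and reads in both cannot be told apart.

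Types III and V, which form mixed fibrils with type I, rose less or fell. Col3a1, the chain of type III collagen in elastic tissues, had 3453 to 3703 CPM with a median of 3583 CPM in shRandom. In shDRP1 it had 5141, 5630, 4923, 4605 and 4794 CPM, all above the control range, and its log2 change was 0.49 (SE 0.06, adjusted p = 4.7e-06, edgeR). Col5a1 and Col5a2 encode the common type V chains, which nucleate fibrils and limit their width. For Col5a2 the shRandom libraries held 504.8 to 592.5 CPM with a median of 522.7 CPM, and the shDRP1 libraries 844.9, 1243, 970.3, 837.0 and 833.5 CPM. No library of either group fell in the range of the other, and the change was 0.81 (SE 0.10, adjusted p = 5.8e-06, edgeR) on the log2 scale. Col5a1 moved less: 615.9 to 739.4 CPM with a median of 685.6 CPM in shRandom against 802.8, 917.1, 864.9, 818.3 and 721.5 CPM in shDRP1. Replicate 5 of shDRP1 lay inside the control range, and the fitted log2 change was 0.27 (SE 0.07, adjusted p = 0.0042, edgeR).

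Col5a3, the rarer type V chain, went the other way. It had 239.4 to 289.0 CPM with a median of 253.4 CPM in shRandom, and 70.8, 67.8, 69.6, 68.0 and 64.4 CPM in shDRP1 libraries. All 5 lay within a narrow band far under the controls, a log2 fold change of -1.92 (SE 0.06, adjusted p = 2.4e-12, edgeR). Its promoter, printed above, precedes a gene on the minus strand (chromosome 9, 20770050 to 20815067).

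Col11a1, Col11a2 and Col27a1 rose as well, and Col2a1, the main fibrillar chain of cartilage, is not analysed here. Col11a1, a chain of the thin fibrils of cartilage, had 5.28 to 11.6 CPM with a median of 8.04 CPM in shRandom and 87.4, 64.8, 66.6, 95.8 and 113.0 CPM in shDRP1. The groups stood far apart, 10.3-fold by the fit, and the log2 fold change of 3.36 (SE 0.20, adjusted p = 4.3e-09, edgeR) was the largest rise among the 24 chains. Its partner Col11a2 stayed low, at 0.516 ± 0.158 CPM (SD, n = 6) and 1.70 ± 0.651 CPM (SD, n = 5), with a log2 fold change of 1.72. Col11a2 passed the low-count filter only through the shDRP1 libraries, so a difference was bound to be found and its p is not given. Col27a1, a fibrillar chain of growth-plate cartilage, went from 3.11 ± 0.558 to 7.59 ± 1.21 CPM (1.28, adjusted p = 2.8e-06). The cartilage regulator Sox9 rose too, from a range of 164.9 to 194.5 CPM up to 365.8 to 404.1 CPM, and it was the only measured gene of 7 chondrocyte markers. What part this had in the Col11a1 rise was not tested.

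**Figure D3:**
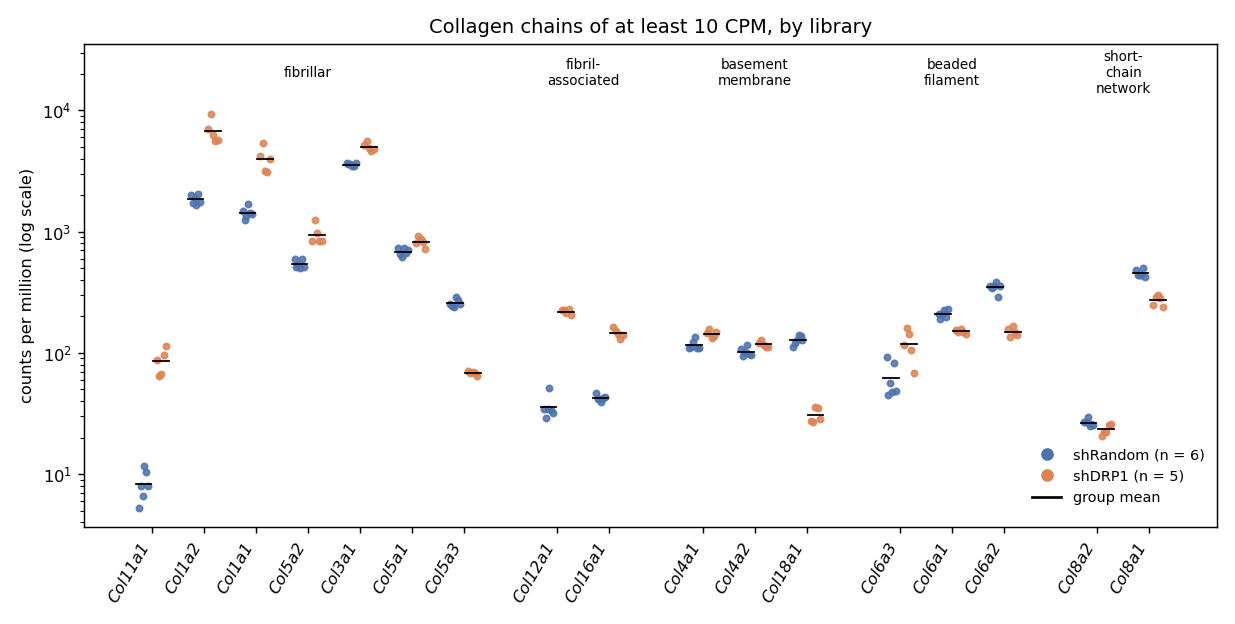
Each point is the level of a chain in a library, in CPM on a log scale, for the 17 chains with a group mean of at least 10 CPM, and black lines are group means. Col11a1 and Col12a1 show the largest fold changes upward (log2 3.36 and 2.61), and Col18a1 and Col5a3 the largest downward (log2 -2.06 and -1.92).

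The fibril-associated chains Col12a1 and Col16a1 rose, and Col14a1 fell. Col12a1 encodes a long chain that bridges fibrils in tendon and in muscle connective tissue. It had 29.3 to 51.6 CPM with a median of 33.9 CPM in shRandom, and 224.0, 224.2, 212.0, 229.1 and 203.7 CPM in shDRP1. The shDRP1 libraries were close to one another and well above the controls, with a log2 fold change of 2.61 (SE 0.12, adjusted p = 1.1e-10, edgeR). Col16a1 went from 39.6 to 47.0 CPM, with a median of 42.1 CPM, up to 162.5, 150.1, 143.7, 130.3 and 141.2 CPM. Its groups were as clearly apart, at 1.77 on the log2 scale (SE 0.07, adjusted p = 8.7e-12, edgeR). Col14a1, a relative of Col12a1 in its domain order, was low and went from 3.87 ± 0.750 CPM to 2.58 ± 0.558 CPM, with groups that overlapped (-0.59, adjusted p = 0.011).

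Basement membrane chains split by type. The type IV chains Col4a1 and Col4a2, which form the common network molecule, rose by little, whereas Col18a1, whose C-terminal fragment is endostatin, fell. Col4a1 had 109.4 to 134.3 CPM with a median of 110.5 CPM in shRandom and 145.6, 156.7, 133.5, 137.0 and 148.3 CPM in shDRP1. Only shDRP1 replicate 3 lay inside the control range, and the fitted log2 change was 0.31 (SE 0.07, adjusted p = 0.0012, edgeR). Col4a2 had 94.1 to 116.2 CPM with a median of 99.5 CPM in shRandom and 120.0, 128.1, 116.7, 111.2 and 111.8 CPM in shDRP1. Replicates 4 and 5 of shDRP1 overlapped the controls, and the change was 0.21 (SE 0.07, adjusted p = 0.013, edgeR). As a part of the collagen counts, type IV chains were lower, 2.22% ± 0.177 in shRandom and 1.39% ± 0.130 in shDRP1.

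Col18a1 had 112.1 to 139.8 CPM with a median of 127.8 CPM in shRandom and 27.4, 26.8, 35.5, 34.8 and 28.4 CPM in shDRP1. The groups were far apart, and the fitted log2 change was -2.06 (SE 0.09, adjusted p = 7.5e-11, edgeR). Its 3′ end on the minus strand of chromosome 10 overlaps the 3′ end of Slc19a1, a folate carrier on the plus strand. Since the strand setting of the counting is not given, reads from the overlap cannot be told apart. Slc19a1 went from 22.1 ± 1.70 CPM to 16.5 ± 3.42 CPM, a log2 fold change of -0.43 (adjusted p = 0.0072, edgeR). The X-linked type IV chain Col4a5 was near the floor, at 0.591 ± 0.287 and 1.02 ± 0.225 CPM, and its call (0.79, adjusted p = 0.048) was lost in 15 of 20 alternatives, among them DESeq2 (0.053). Col7a1, the anchoring fibril chain of skin, did not pass, at 1.59 ± 0.745 and 1.49 ± 0.348 CPM (adjusted p = 0.84).

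The type VI chains did not move together, although the 3 assemble into the same filament. Col6a2 had 288.2 to 385.1 CPM with a median of 353.4 CPM in shRandom and 157.8, 135.8, 167.1, 148.2 and 141.3 CPM in shDRP1. Each shDRP1 library lay under each control library, at -1.21 on the log2 scale (SE 0.08, adjusted p = 4.3e-09, edgeR). Col6a1 fell less, from 191.0 to 231.9 CPM with a median of 207.9 CPM down to 153.9, 148.2, 158.2, 147.6 and 143.2 CPM. These groups did not overlap either, and the change was -0.49 (SE 0.06, adjusted p = 6.1e-06, edgeR). Col6a3, the largest chain, rose instead: it had 45.2 to 92.7 CPM with a median of 52.4 CPM in shRandom and 115.1, 161.6, 143.5, 105.7 and 68.2 CPM in shDRP1. It varied more within groups than the other two, with shRandom replicates 1 and 5 at 92.7 and 82.3 CPM above shDRP1 replicate 5, and its log2 change was 0.94 (SE 0.24, adjusted p = 0.0045, edgeR).

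The falling Col6a1, Col6a2 and Col18a1 are neighbours on mouse chromosome 10. The span from 76595762 to 77166548 on GRCm38 is bounded by these falling chains, so a count of lower genes that includes them is not a result. Only 2 other tested genes lie in or overlap it. Slc19a1, which overlaps Col18a1, was lower. The RNA-binding protein gene Pcbp3, between Col6a1 and Col18a1, was higher, from 6.26 to 9.22 CPM (log2 fold change 0.56, adjusted p = 0.00026). This span was chosen after the values were seen. On chromosome 1, Col3a1 and Col5a2 lie tail to tail, and both rose.

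Col8a1 and Col8a2 encode the short chains of type VIII collagen, a hexagonal lattice of vessel walls and of the membrane under the corneal endothelium. Col8a1 had 423.9 to 499.3 CPM with a median of 436.6 CPM in shRandom and 248.1, 287.7, 299.8, 283.4 and 241.2 CPM in shDRP1. All shDRP1 libraries were lower, and the fitted log2 change was -0.73 (SE 0.07, adjusted p = 4.5e-07, edgeR). Col8a2 had 24.98 to 29.6 CPM with a median of 26.4 CPM in shRandom and 20.7, 22.3, 22.4, 25.5 and 26.0 CPM in shDRP1. Its groups overlapped, and the change of -0.18 (SE 0.08, adjusted p = 0.052, edgeR) missed the threshold, which it passed under 8 of 21 alternatives, with DESeq2 at an adjusted p of 0.026.

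Of 4 transmembrane chains, all scarce, 2 were tested, Col13a1 and Col17a1. Both passed the low-count filter only through the shRandom libraries, so a difference was bound to be found and its p is not given. Col13a1, which anchors the neuromuscular junction, had counts of 20, 27, 13, 13, 10 and 8 in shRandom replicates 1 to 6, and 1 count in all shDRP1 libraries together, in replicate 1. The ratio of shRandom to shDRP1 was 73.7 (exact binomial limits 12.9 and 2942 at 95%, for counting error alone). Without shDRP1 replicate 1 no shDRP1 count remained, so the size of the fall is uncertain. Col17a1, the hemidesmosome collagen of skin, had counts of 8 to 21 in shRandom libraries and 1, 1, 4, 1 and 4 in shDRP1 libraries, a log2 fold change of -2.56 (SE 0.39). Without any of shRandom replicates 2 to 6 Col17a1 fell under the filter. The untested Col23a1 had 33 counts over the shRandom and 26 over the shDRP1 libraries, with groups that overlapped.

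The 7 chains under the filter had few counts. Col10a1, the collagen of hypertrophic cartilage, had 0, 3, 1, 2, 0 and 1 counts in shRandom and 7, 14, 19, 20 and 6 in shDRP1 libraries. It lies within Nt5dc1 on the opposite strand, which had 6.85 ± 1.25 and 8.16 ± 0.524 CPM, so the origin of these reads is uncertain. With no low-count filter Col10a1 was higher in shDRP1 (adjusted p = 4.9e-05, edgeR). Col25a1 and Col26a1 had 17 counts each over the shRandom libraries and 2 and 1 over the shDRP1 libraries, and with no filter both were lower (adjusted p = 0.01 and 0.004, edgeR). Col19a1, Col22a1, Col23a1 and Col24a1 had 9 to 33 counts per group. With no filter none of these passed (adjusted p = 0.35, 0.82, 0.99 and 0.96, edgeR).

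Paired chains changed unequally in 7 of 8 pairs. The 7 include Col11a1 and Col11a2, a pair compared only because Col11a2 reached 1 CPM in shDRP1. The ratios use the same chain levels as above, and ratios of other gene pairs were not compared. With 67.1% of all tested genes past the threshold, the count cannot be read as a trait of partner chains. The log2 ratio of 2 chains was compared between groups for 7 pairs of the same collagen type and for the genomic neighbours Col3a1 and Col5a2, with a two-sided exact permutation test over libraries (462 splits, smallest possible p 0.00216), adjusted over the 8 pairs, and 6 pairs of the same type and the neighbours differed. Col1a1 to Col1a2 went from -0.37 ± 0.20 (SD, n = 6) to -0.78 ± 0.17 (SD, n = 5), a difference of -0.41 (adjusted p = 0.00346). Type I is mostly made of α1 and α2 chains in a fixed proportion, and a level here is a count of 3′ tags, so only the change of the ratio is read. Col5a1 to Col5a2 fell by 0.53 (adjusted p = 0.00346) and Col8a1 to Col8a2 fell by 0.55 (adjusted p = 0.00346).

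The widest shifts were in types XI and VI. Col11a1 to Col11a2 rose by 2.21, from 3.09 ± 0.27 to 5.30 ± 0.27. Col11a2 reached 1 CPM in shDRP1 only, so the pair was compared only through that group and its p is not given. In shRandom Col11a2 was near the added 0.5 CPM, so the size of the rise depends on that amount. With 0.1 CPM added the rise was 1.85, and the fitted log2 changes of Col11a1 and Col11a2 were 3.36 and 1.72. Col6a1 to Col6a2 went from -0.71 ± 0.11 to 0.00 ± 0.08, a rise of 0.72 (exact permutation test, adjusted p = 0.00346). Col6a1 to Col6a3 fell by 1.42 (same test, adjusted p = 0.00577), from 1.81 ± 0.48 to 0.40 ± 0.44. Col3a1 to Col5a2 fell by 0.31 (adjusted p = 0.0099). The head-to-head pair Col4a1 and Col4a2 gave 0.19 ± 0.09 in shRandom and 0.29 ± 0.08 in shDRP1, and the difference of 0.10 did not pass (adjusted p = 0.0693). It passed without shRandom replicate 3 (0.13, adjusted p = 0.0317, exact permutation test) or shDRP1 replicate 3 (0.13, adjusted p = 0.0286, same test).

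**Figure D4:**
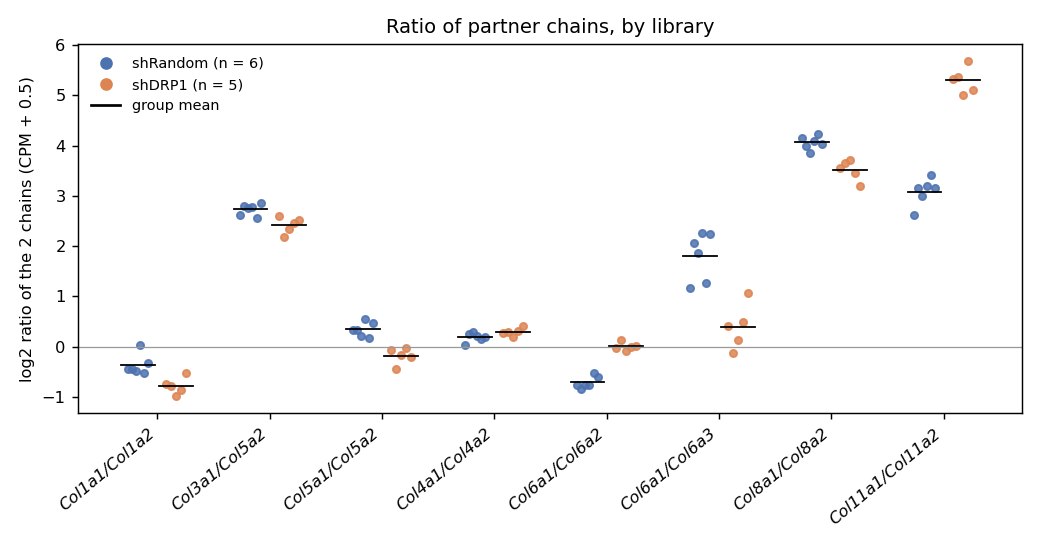
Each point is the log2 ratio of 2 collagen chains in a library, from CPM with 0.5 added, and black lines are group means. The groups lie apart for Col11a1/Col11a2 (means 3.09 and 5.30) and Col6a1/Col6a2 (means -0.71 and 0.00), and overlap for Col4a1/Col4a2. The size of the Col11a1/Col11a2 shift depends on the 0.5 CPM added, since Col11a2 was near that level in shRandom.

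Genes that modify, export, cut, cross-link and bind collagen mostly rose too, in a list of 57 of which 50 were measured. Of the 50, 30 rose, 11 fell and 9 did not pass, with a median log2 fold change of 0.42. The 30 make 60% and the 11 make 22%, where 33.9% and 33.3% of all tested genes rose and fell. Since the list was chosen with earlier results of these data known, these shares are descriptions. Itga10, which fell, and Lum, which rose, passed the low-count filter only or mainly through the group where they are high. Among genes of hydroxylation and glycosylation 8 of 14 rose and 2 fell. P4ha2, the catalytic subunit of a prolyl hydroxylase that stabilises the helix, had 43.5 to 56.9 CPM with a median of 47.9 CPM in shRandom and 125.1, 136.7, 120.7, 113.9 and 120.4 CPM in shDRP1. Its groups did not overlap, and the fitted log2 change was 1.32 (SE 0.08, adjusted p = 1.7e-09, edgeR). The related subunit P4ha1 stood at 86.1 ± 5.63 and 87.4 ± 8.68 CPM and did not pass (log2 fold change 0.02, adjusted p = 0.82).

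Chaperones and export factors rose in 8 of 12 cases and fell in 3. The 8 make 66.7% and the 3 make 25%, where 33.9% and 33.3% of all tested genes rose and fell. Serpinh1 encodes HSP47, the chaperone that binds the folded helix. It had 77.4 to 183.0 CPM with a median of 119.2 CPM in shRandom and 177.5, 363.5, 214.2, 142.1 and 148.8 CPM in shDRP1. The groups overlapped with replicate 2 of shDRP1 far above the rest, and the log2 fold change of 0.74 (SE 0.26, adjusted p = 0.023, edgeR) became 0.44 (adjusted p = 0.069) without that library. Tmem38b, a reticulum cation channel whose loss causes brittle bones in people, fell from 29.4 ± 4.44 to 5.81 ± 0.523 CPM (log2 fold change -2.34, adjusted p = 3.3e-10).

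Extracellular steps were mixed. Each step below has few genes, and 33.9% of all tested genes rose and 33.3% fell, so the counts are descriptions. Lox, the lysyl oxidase that starts cross-links, had 661.2 to 796.9 CPM with a median of 676.2 CPM in shRandom and 1714, 1715, 1801, 1857 and 1803 CPM in shDRP1. The groups were far apart, at 1.35 on the log2 scale (SE 0.06, adjusted p = 6.5e-11, edgeR), while 3 of the other 4 lysyl oxidase genes fell, with Loxl2 at -1.83 (from 20.1 ± 1.68 to 5.70 ± 1.11 CPM, adjusted p = 5.4e-09). Among 5 measured genes of propeptide cleavage 2 rose and 2 fell, and Pcolce2, an enhancer of that cleavage, fell from 63.1 ± 2.89 to 22.8 ± 2.13 CPM (-1.47, adjusted p = 1.7e-10). Receptors rose in 5 of 7 cases and fell in 1. The gene that fell, Itga10 (4.04 ± 0.540 and 0.593 ± 0.150 CPM), passed the low-count filter only through the shRandom libraries and had to differ. Itga11, the integrin subunit for fibrillar collagen, rose from 10.6 ± 1.29 to 25.1 ± 3.18 CPM (1.24, adjusted p = 9.4e-08). Fibril partners rose in 6 of 7 cases, and decorin (Dcn), which coats fibrils, rose from 91.7 ± 12.8 to 338.8 ± 48.9 CPM (1.88, adjusted p = 1.7e-09, edgeR for all). Dcn and Lum are also on the fibroblast marker list. Lum, among the 6, was near the floor (0.352 ± 0.150 and 0.901 ± 0.319 CPM) and passed the low-count filter mainly through the shDRP1 libraries.

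**Figure D5:**
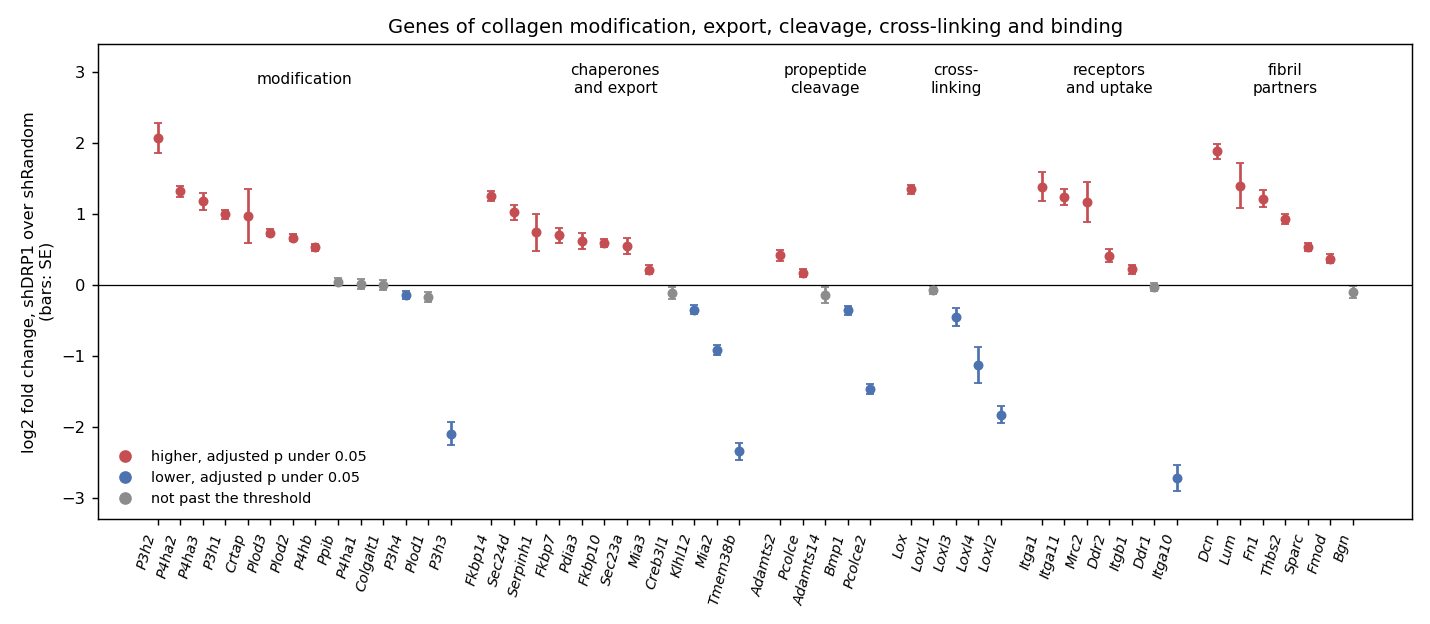
Points give the log2 fold change of shDRP1 over shRandom for 50 genes of collagen assembly and binding in the order of their steps, and bars give the SE. Of these genes 30 were higher (red) and 11 lower (blue), with Lox the only cross-linking gene that rose.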

How the data were processed

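Messenger RNA was measured in 11 libraries of C2C12 cells, grouped by the hairpin in their titles. Per the series text, libraries were made with QuantSeq and aligned in the BlueBee software; DESeq2 version 1.22.2 and the builds GRCm38 and mm10 appear in the submitters' processing notes. The aligner, counter, strand setting and gene annotation were not given in the sources used here. Raw whole-number counts for 15113 genes were deposited by the authors, and 15080 identifiers matched a symbol; their normalized table was not used. Positions are from GENCODE M21 on GRCm38. 

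The low-count filter, filterByExpr with the groups given, kept 13025 genes. TMM scaling and the test used edgeR (version 4.0.16, R version 4.3.3; robust quasi-likelihood fit, group as the only term, Benjamini-Hochberg adjustment over all tested genes, threshold 0.05). CPM use TMM-scaled totals, and each SE is the log2 change divided by the root of F. Pair ratios use CPM plus 0.5, for pairs in which both chains reached 1 CPM in a group. The edgeR step was tested on simulated data in which few genes changed. That test does not cover data such as these, in which 67.1% of tested genes passed the threshold. No library repeats another of its group, since chi-square per degree of freedom was at least 5.03 for every pair.

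Named are all chains, with values per library for those of at least 10 CPM in a group; of the assembly list, the 3 strongest called rises and the 3 strongest called falls with at least 10 CPM in a group, plus Serpinh1, P4ha1, Lox and Itga11; and Dnm1l. Slc19a1, Nt5dc1, Pcbp3, Gm43921, Sox9, Acta2, Des and the fibroblast markers named were chosen after their values were seen. Members and lists were chosen with earlier results of these data known. Alternatives were other scalings, filters and thresholds, DESeq2 version 1.42.0, limma-voom (limma version 3.58.1), the replicate number as a block and leaving out each library.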

Additional observations from a re-analysis of the deposited data

Results flagged for a closer look

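In Col12a1, shRandom replicate 4 was at 51.6 CPM, apart from the other 5 controls by more than Dixon's limit for a group of 6. It still lay far under the lowest shDRP1 library at 203.7 CPM. It was the only such library among 34 groups checked, and chance flags about 5% of groups.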

How the results depend on the processing

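The count of higher chains stayed at 12 to 14 and that of lower chains at 6 to 11 under every alternative but the fold threshold. Asking for at least 2-fold as well left 7 higher and 5 lower chains, and 13 higher and 6 lower genes of the assembly list. Leaving out each library in turn gave 13 to 14 higher and 6 to 9 lower chains, 28 to 30 higher and 10 to 12 lower assembly genes, and 7 to 8 differing pairs. The replicate number as a block gave 12 higher and 7 lower chains, and Col4a2 missed the threshold with it (adjusted p = 0.068). The deviations of same-numbered libraries from their group means had correlations of -0.24 to 0.44, positive for replicate 4 and negative for the other numbers. Differently numbered libraries were not compared, so whether same-numbered libraries share more than a number was not tested. For pairs the block gave the mean differences without a test, since 5 pairs cannot reach the threshold.

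No chain past the threshold reversed. Col7a1, not past it, changed sign with library totals (0.0251), upper-quartile scaling (0.0133) and limma-voom (0.0555), and its range without each library in turn was -0.24 to 0.0835. P4ha1, also not past it, changed sign with DESeq2 (-0.001) and the replicate block (-0.0087), and ranged from -0.0475 to 0.06 without each library in turn. The causes were not tested. Some fits gave no value for chains under the filter: Col13a1 without any of shRandom replicates 1 to 5, Col17a1 without any of shRandom replicates 2 to 6 and with the replicate block, and Col13a1, Col17a1 and Col4a5 with the stricter filter. Depth limits chains under 1 CPM: Col13a1, Col17a1 and the 7 untested chains rest on too few counts for a size.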
